A study of Mus musculus with 6 samples.

Results

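The genes described here are the heat shock proteins and the J-domain cochaperones of cultured mouse mammary epithelial cells. Probes were taken by the gene symbol of the array platform: Dnaja, Dnajb or Dnajc with a number, Hspa with a number, Hspb with a number, and Hsp90aa1, Hsp90ab1, Hsp90b1, Hspd1, Hspe1 and Hsph1. The rule found 130 of 45281 probes, which carried 64 of 19057 gene symbols. Only probes with detection p below 0.05 on 3 or more of the 6 arrays were tested, and 71 member probes of 48 genes met this, among 17920 probes of the whole array. Of the 71, 66 were detected on all 6 arrays, and 0 were detected in 1 genotype only. Of the 59 member probes not tested, 44 were detected on no array. The 16 genes without a tested probe include Dnaja1, Dnajb5, Dnajc9, Dnajc14, Hspa13 and Hspa14. The platform symbol Hsp90ab1 matched 0 probes. Near the detection threshold no probe was detected on exactly 3 arrays. The 3 probes detected on 4 arrays, of Dnaja2, Dnajb6 and Hspb2, had means of 4.60 to 4.67 (log2 intensity over 6 arrays), and the 7 probes detected on 2 arrays had means of 4.45 to 4.61. Besides the symbol and the detection p, the difference between genotypes of Dnajc12 was known when the genes were chosen, so the Dnajc12 values are a description and not a test.

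Heat shock proteins are chaperones, which bind unfolded or newly made proteins and help them to fold. Hsp70 proteins bind and release their clients in a cycle driven by ATP. J-domain proteins bring clients to Hsp70 and start ATP hydrolysis, and Hsp110 proteins exchange the nucleotide afterwards. Hsp90 acts later on receptors and kinases, the Hsp60 and Hsp10 chaperonin folds proteins within mitochondria, and small heat shock proteins hold unfolded proteins in solution. Heat and proteotoxic stress activate heat shock factor 1, which raises the inducible members, whereas stress of the endoplasmic reticulum (ER) raises a separate set with Hspa5 and Hsp90b1.

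Cultures lacking Jarid1b (KO, Jarid1b-/-) were compared with cultures of wild-type mice (WT, Jarid1b+/+). Jarid1b is the older symbol of Kdm5b, a demethylase of lysine 4 of histone H3. Each genotype has 3 arrays, lettered A, B and C after the sample titles. A digit follows the letter in each title, and its meaning is not known here. The digit is the same within pair A and within pair C, differs between A and C, and differs within pair B. The labels describe the cultures as pairs of early-passage cells taken before confluence. The labels give no treatment, age or allele beyond this and do not say which animal gave which culture, so the p-values cover the spread between these 6 samples, part of which may be technical. All values below are log2 intensities after background correction and quantile normalisation, and the small number of arrays limits their precision. From 17033 to 18686 probes were detected per array. Kdm5b read 4.42, 4.42 and 4.34 in KO arrays A, B and C at its brightest probe, against 7.07, 6.89 and 6.60 in WT arrays A, B and C. Its 3 probes were detected on no KO array and on all 3 WT arrays, so the arrays match their labels at this gene, though the position of the probes relative to the deleted part is not known here. Of the luminal markers 11 of 12 genes with a probe were tested, and of the basal markers 7 of 8. Epcam was detected on no array, while fibroblast markers, with 11 of 11 tested, and macrophage markers, with 7 of 8, were also present in these bulk cultures. In bulk RNA, fewer cells of a type and less RNA per cell cannot be told apart.

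Dnajc12, which encodes a class C J-domain protein known in human cells as the cochaperone of the aromatic amino acid hydroxylases, was lower in every KO array than in any WT array at both of its tested probes. Probe ILMN_1229993 read 6.96, 6.90 and 7.41 in KO arrays A, B and C, against 8.12, 8.23 and 8.32 in WT arrays A, B and C. The KO arrays lay well below the WT arrays, without overlap, and KO array C was the highest of the KO arrays. The means were 7.09 ± 0.28 in KO and 8.22 ± 0.10 in WT (SD, n = 3 each). The log2 difference was -1.13 (SE 0.20), so that the KO signal was 0.456 of the WT signal. Probe ILMN_2538061 read 5.31, 5.30 and 5.72 in KO arrays, against 6.72, 6.79 and 6.95 in WT arrays. Its means were 5.44 ± 0.24 in KO and 6.82 ± 0.12 in WT (SD, n = 3 each), and the log2 difference was -1.38 (SE 0.19), with KO at 0.384 of the WT signal. Within pairs A, B and C the differences were -1.16, -1.33 and -0.91 at the first probe, and -1.42, -1.49 and -1.24 at the second. The remaining Dnajc12 probe was detected on no array. The second probe is the dimmer, and its difference shrank to -0.64 without background correction and to -0.59 on the authors' value table, while that of the first probe shrank to -0.80 and -0.77. Dnajc12 lies on chromosome 10 and Kdm5b on chromosome 1, and the cause of the Dnajc12 difference was not tested. In human breast cancer cells the Dnajc12 transcript is known to respond to oestrogen, and luminal markers are therefore given beside it. The differences of all 11 tested luminal genes were below 0 (median -0.31), against 51.8% of all genes. In limma 0 of 11 had an unadjusted p under 0.05, against 3.24%. A second fit, which blocked the arrays by letter, gave 3 of 11 (Foxa1, Elf3 and Cldn4, all lower in KO), against 8.68%. The summed level of the luminal genes was 14.28, 14.91 and 14.58 in KO arrays A, B and C, against 15.15, 15.06 and 14.84 in WT arrays. Esr1, the oestrogen receptor, differed by -0.27 (SE 0.35), Foxa1 by -0.91 (SE 0.41) and Pgr, the progesterone receptor, by -0.53 (SE 0.26). Fibroblast markers were above 0 in 11 of 11 (median 0.78), 7 of them at an unadjusted p under 0.05 in limma, with a summed level of 13.68, 13.16 and 13.93 in KO arrays A, B and C, against 13.05, 13.18 and 13.05 in WT arrays. Differences were also above 0 for 12 of 12 proliferation genes (median 0.91), 7 of 7 macrophage genes (median 0.12), 5 of 5 endothelial genes (median 0.46) and 3 of 3 T cell genes (median 0.74), with 1 of these, Mcm3, at an unadjusted p under 0.05. Blocked by letter, the fit gave 7 fibroblast, 3 proliferation, 2 macrophage, 1 endothelial and 0 T cell genes, all higher in KO. Within pairs A, B and C the medians were -0.55, -0.78 and 3.35 for T cell genes, and 2.19, -0.28 and 0.66 for proliferation genes. The macrophage median was -0.04 in pair B and the endothelial median -0.07 in pair A. Luminal medians were -0.95, -0.17 and -0.31 within pairs A, B and C. Fibroblast medians were 1.05, 0.06 and 1.01 within the same pairs, so pair B showed little difference. The part of the makeup of the cultures in the Dnajc12 values was not tested.

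**Figure D1:**
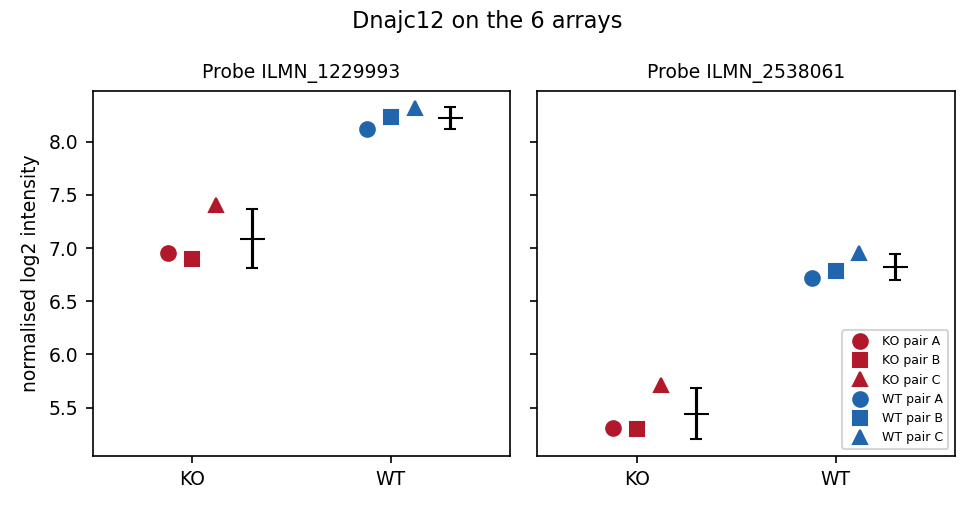
Normalised log2 intensity of both tested Dnajc12 probes on each array, KO left and WT right, with the symbol for the culture pair and a black mean with SD (n = 3). At both probes the highest KO array (7.41 and 5.72) lies below the lowest WT array (8.12 and 6.72).

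The comparison of KO with WT across the other members asks which chaperone transcripts differ without Jarid1b, and none of the 71 member probes passed an adjusted p under 0.05 in limma over 17920 probes. Over all tested probes 3 passed, which is 0.0167%. Among these were Kdm5b probes ILMN_1251270 and ILMN_2777722, each at adjusted p = 0.0155 in limma. At an unadjusted p under 0.05 there were 2 member probes, both of Dnajc12 and lower in KO, against 3.03% of all tested probes, or 1.77% with KO lower. For the remaining 69 probes the lowest adjusted p was 0.9999. When the pair letter entered as a replicate block, 0 member probes passed, against 0.0223% of all tested probes, with adjusted p = 0.26 and 0.146 for the Dnajc12 probes. The block left 7 of 71 member probes at an unadjusted p under 0.05, against 8.08%. Of these 6 were lower in KO, against 4.82%, and 1 was higher, against 3.26%. Without the Dnajc12 probes, whose difference was known beforehand, 4 of 69 were lower and 1 was higher. The median log2 difference of the members was -0.10, against -0.02 over all tested probes, with 49 of 71 below 0, against 54.0%. It was -0.09 without Dnajc12, with 47 of 69 below 0. The groups did not overlap for 8 member probes, 6 lower and 2 higher in KO, against 8.14% of all tested probes, 5.30% lower and 2.84% higher. Besides Dnajc12 these were 6 probes with differences of 0.12 to 0.33 in size.

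Cytosolic Hsp70 genes had a median difference of -0.10 over 11 probes of 5 genes, with 8 negative and 3 positive. Hspa1a and Hspa1b, the stress-inducible Hsp70 genes, are near-identical copies whose probes may read each other. Their 5 probes differed by -0.59 to -0.09, with SE of 0.75 to 1.19 without the pair letter and 0.16 to 0.22 with it as a block. Hspa1a probe ILMN_1245039 was lower in KO within each pair, by -0.92, -0.12 and -0.74 in A, B and C (block SE 0.20, unadjusted p = 0.0206, adjusted p = 0.549 in limma), while the other Hspa1a probes were lower in pair A only. One Hspa1b probe, ILMN_2530672, was likewise lower in each pair, by -0.76, -0.34 and -0.55 (block SE 0.16, unadjusted p = 0.0112, adjusted p = 0.527 in limma). The other Hspa1b probe differed by -0.88, 0.12 and -0.09 in the same pairs. Hspa8, the constitutive Hsp70 of the cytosol, differed by 0.07 (SE 0.22), 0.18 (SE 0.32) and -0.34 (SE 0.42) at its 3 probes. Hspa2, the Hsp70 abundant in testis, differed by -0.10 and -0.05, and Hspa12b, a distant Hsp70 relative of endothelial cells, by 0.18 (SE 0.39).

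In the organelles, Hspa5, the ER Hsp70 also called BiP, read 5.23, 5.13 and 5.12 in KO arrays A, B and C, against 5.34, 5.25 and 5.27 in WT arrays. The groups did not overlap, but the difference was only -0.12 (SE 0.15). The Hspa5 probe was dim, with raw intensities of 106.5 to 123.2, against array medians of 95.3 to 100.7. Hsp90b1, the ER Hsp90 also called GRP94, read 11.16, 10.90 and 11.31 in KO arrays, against 10.87, 10.71 and 10.80 in WT arrays. All KO arrays were above all WT arrays, with a difference of 0.33 (SE 0.18). The mitochondrial Hsp70 gene Hspa9 differed by -0.04 and 0.02 at its probes. The Hsp60 gene Hspd1 differed by 0.20 (SE 0.45) and -0.26 (SE 0.66), and the Hsp10 gene Hspe1 by 0.23 (SE 0.52). Hsp90aa1, the inducible cytosolic Hsp90, differed by 0.01 (SE 0.40) and -0.25 (SE 0.75).

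Among the Hsp110 genes, Hspa4l had the largest positive difference of all tested members, at its only tested probe. The remaining Hspa4l probes, annotated to a RefSeq transcript, were detected on no array. A different sequence, a cDNA clone, is the annotation of the tested probe. The tested probe was dim, with raw intensities of 103.7 to 148.0, against array medians of 95.3 to 100.7. It read 5.54, 6.54 and 6.02 in KO arrays A, B and C, against 5.12, 5.90 and 4.61 in WT arrays A, B and C. KO was higher within each pair, by 0.43, 0.65 and 1.41, although the groups overlapped, and the log2 difference of 0.83 had an SE of 0.38 without the pair letter and 0.22 with it as a block (unadjusted p = 0.00733, adjusted p = 0.51 in limma). Hsph1 differed by 0.13 (SE 1.34) and Hspa4 by -0.02 (SE 0.27). Small heat shock proteins had a median of 0.20 over 5 probes, 4 of them positive. Hspb8, a partner of the exchange factor Bag3, differed by 0.26 (SE 0.39) and 0.38 (SE 0.36), Hspb2 by 0.20 (SE 0.25), Hspb6 by 0.07 (SE 0.23) and Hspb1, also called Hsp25, by -0.25 (SE 0.54).

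Differences of J-domain genes were below 0 for 3 of 3 probes in class A, 11 of 12 in class B and 21 of 28 in class C, against 54.0% of all tested probes, with medians of -0.17, -0.18 and -0.14. Within pairs the medians did not keep 1 sign, since class B was at 0.06 in pair B and class C at 0.04 in pair A. None but Dnajc12 had an unadjusted p under 0.05 without the pair letter. Dnajc6, or auxilin, which strips clathrin from vesicles, was the next lowest. Its probe ILMN_2733605 read 5.37, 5.33 and 6.14 in KO arrays A, B and C, against 5.86, 6.04 and 6.56 in WT arrays. KO was lower in each pair, yet KO array C exceeded WT arrays A and B, and the difference was -0.54 (SE 0.29, or 0.15 with the replicate block, unadjusted p = 0.01 and adjusted p = 0.516 in limma). The other Dnajc6 probe differed by -0.46 (SE 0.34). In class B, Dnajb1, the main cytosolic partner of Hsp70, differed by -0.34 (SE 0.40), Dnajb4 by -0.30 (SE 0.20) and Dnajb2 by -0.29 (SE 0.55). The 4 probes of Dnajb6, which keeps polyglutamine proteins from aggregating, ran from -0.37 to 0.20 and did not share a sign. In class A, Dnaja3, which acts in mitochondria, differed by -0.19 (SE 0.23) and Dnaja2 by -0.17 (SE 0.18) and -0.05 (SE 0.20). On the positive side Dnajc2, a chaperone at the ribosome, differed by 0.33 (SE 0.24) and 0.28 (SE 0.18), the mitochondrial import genes Dnajc15 and Dnajc19 by 0.33 (SE 0.33) and 0.29 (SE 0.33), and Dnajc1 by 0.25 (SE 0.19). A second Dnajc19 probe differed by -0.05. Dnajc4 differed by -0.29 (SE 0.17) and the cysteine string protein gene Dnajc5 by -0.22 and -0.05. Counting all roles, 21 member probes were lower and 8 were higher in KO within all 3 pairs, against 19.2% and 12% of all tested probes. By at least 0.3 log2 units in every pair, 5 were lower (both Dnajc12, both Dnajc6 and 1 Hspa1b probe), against 2.11%, and 1 was higher (Hspa4l), against 1.23%. Both counts of lower probes include the Dnajc12 probes, whose difference was known when the genes were chosen. Of the 19 genes with several tested probes, 12 had probes of 1 sign and 7 did not.

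**Figure D2:**
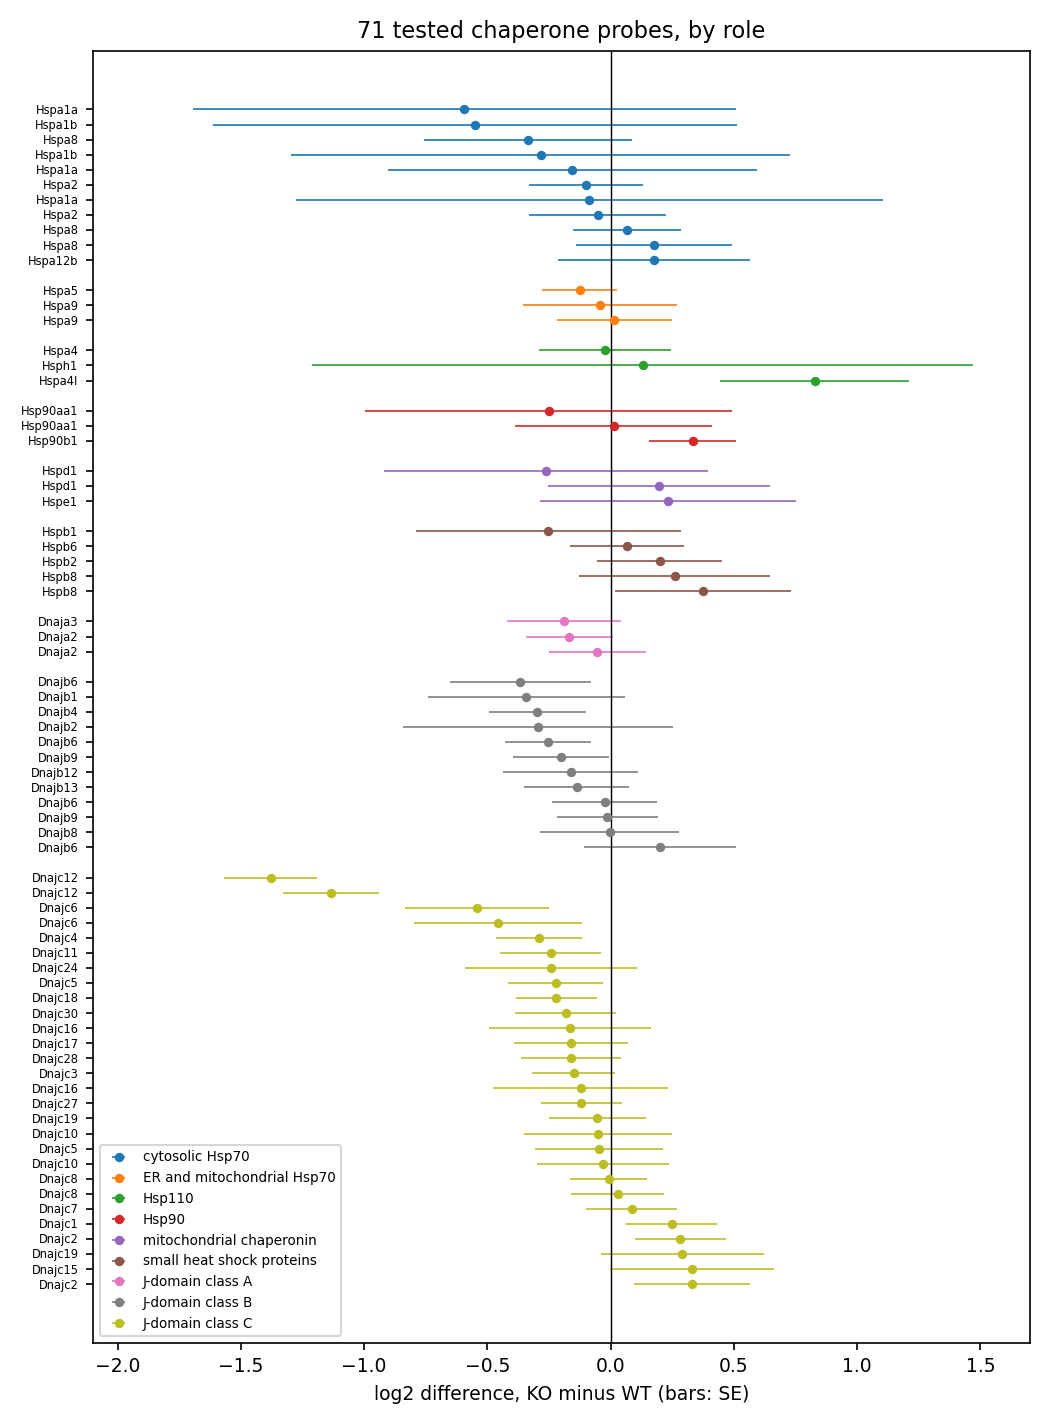
Log2 difference of KO minus WT with SE for each of the 71 tested probes, 1 row per probe, grouped and coloured by role. Both Dnajc12 probes, at -1.38 and -1.13, stand apart from the other 69, which run from -0.59 to 0.83, and the widest bars belong to Hsph1, Hspa1a and Hspa1b.

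Hsph1, Hspa1a and Hspa1b, which had the widest errors between genotypes, differed between the culture pairs. Hsph1, the inducible Hsp110, read 8.73 in KO array C against 11.87 and 12.33 in KO arrays A and B, and 8.10 in WT array C against 12.16 and 12.28 in WT arrays A and B. Both arrays of pair C were far below all others, by -3.37 in KO and -4.12 in WT, a mean 13.4-fold gap (adjusted p = 0.00224 for the pair letter, limma's moderated F-test with genotype in the model). Hspa1a probe ILMN_1225328 read 6.74 in KO array C against 9.31 and 10.39 in KO arrays A and B, and 6.63 in WT array C against 9.77 and 10.30 in WT arrays A and B. Hspa1b probe ILMN_2530672 read 7.55 in KO array C against 10.03 and 10.90 in KO arrays A and B, and 8.10 in WT array C against 10.79 and 11.24 in WT arrays A and B. Pair C was again the low one in both genotypes, with gaps of 9.59-fold and 7.56-fold (adjusted p = 0.00218 for each). All 5 probes of the inducible Hsp70 genes passed, with gaps of 4.05-fold to 9.59-fold.

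Smaller gaps in the same direction reached other families. Hsp90aa1 probe ILMN_2668319 read 7.12 in KO array C against 9.07 and 9.91 in KO arrays A and B, and 7.93 in WT array C against 9.37 and 9.56 in WT arrays A and B, a gap of 3.88-fold. The other Hsp90aa1 probe had a gap of 2.03-fold. Hspd1 and Hspe1, neighbours on chromosome 1 that encode the partners of the mitochondrial chaperonin, were lower in pair C by 3.12-fold, 2.26-fold and 2.60-fold at their 3 probes. Hspb1 was lower by 2.58-fold, with 9.55 in KO array C against 10.50 and 11.22 in KO arrays A and B, and 9.73 in WT array C against 10.94 and 11.36 in WT arrays A and B. Dnajb2, a J-domain protein with ubiquitin-binding motifs, was lower by 2.76-fold, 1 of 3 Hspa8 probes by 2.13-fold and 1 of 2 Hspb8 probes by 2.0-fold. Dnajb1 had a gap of 1.87-fold and did not pass (adjusted p = 0.0572). In all, 15 of 71 member probes of 10 genes passed for the pair letter, against 6.0% of all tested probes, and every one of the 15 was lowest in pair C in both genotypes. The share of all tested probes that passed was 4.51% with pair C lower and 1.49% with pair C higher.

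**Figure D3:**
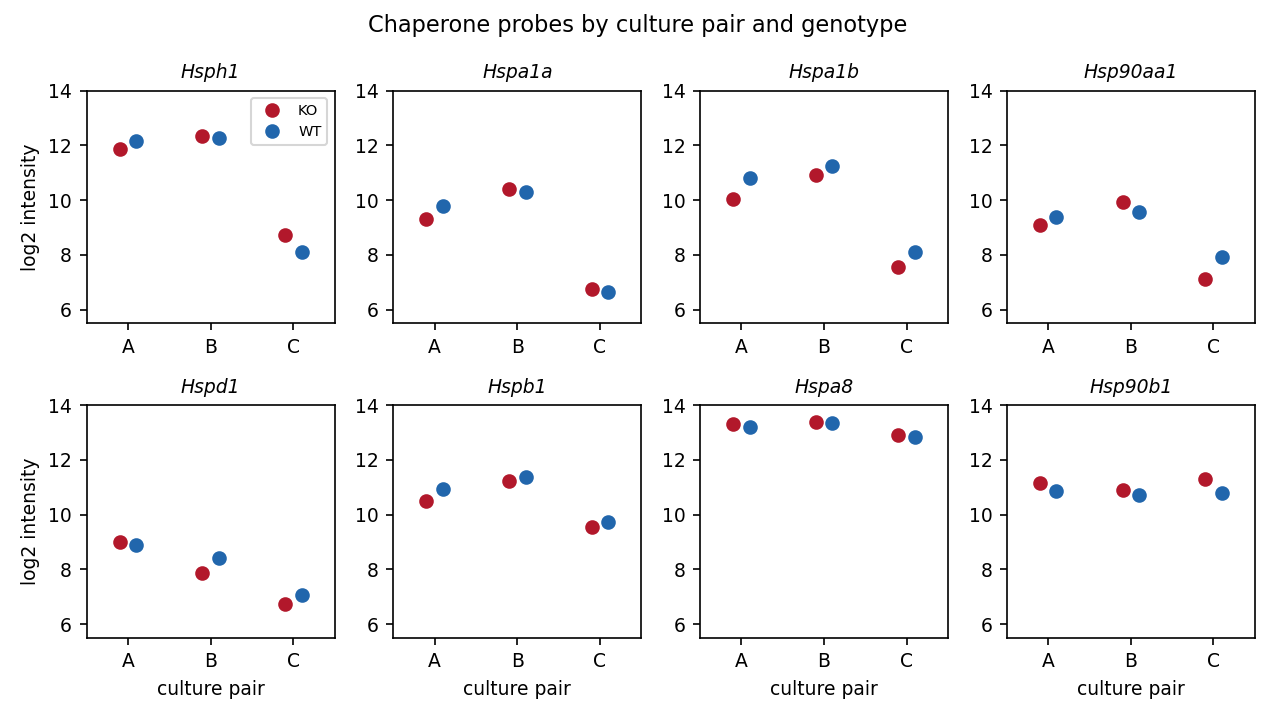
Log2 intensity of 8 chaperone genes, 1 probe each, by culture pair, with KO left of WT in each pair. In Hsph1, Hspa1a, Hspa1b, Hsp90aa1, Hspd1 and Hspb1 both arrays of pair C are the lowest, while Hsp90b1 lies between 10.71 and 11.31 on the 6 arrays.

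Members of other roles had other values. Class C J-domain probes had a median of 0.30 in KO and 0.26 in WT for pair C minus the mean of A and B, 16 of 28 were higher in pair C in both genotypes, against 39.4% of all tested probes, and 0 passed. Cytosolic Hsp70 probes had medians of -1.21 in KO and -0.98 in WT. The ER genes Hspa5 and Hsp90b1 gave adjusted p = 0.882 and 0.581 for the pair letter, and Dnajc12 gave 0.427 and 0.413 at its probes. The Hspa5 probe was dim (raw intensities of 106.5 to 123.2), which limits what its value shows. Of all 71 probes, 12 were lower by at least 1 log2 unit in pair C in both genotypes, against 3.42%, and 0 were higher by as much, against 1.12%. The test of the pair letter was chosen after the gap had been seen, and with 1 array for each pair and genotype it rests on the pair C arrays. The count of 15 was 6 without KO array C (0.854% of all tested probes), 6 without WT array C (1.58%) and 8 without KO array B (1.61%). It was 7 if no background was corrected (0.921%) and 4 in the authors' values (0.541%), but 17 with a robust fit with an intensity trend (7.32%) and 18 with array weights (7.83%). It was 0 with pairs A and B only, where 6 had an unadjusted p under 0.05 in limma. The share of all tested probes at that unadjusted p is not given here.

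**Figure D4:**
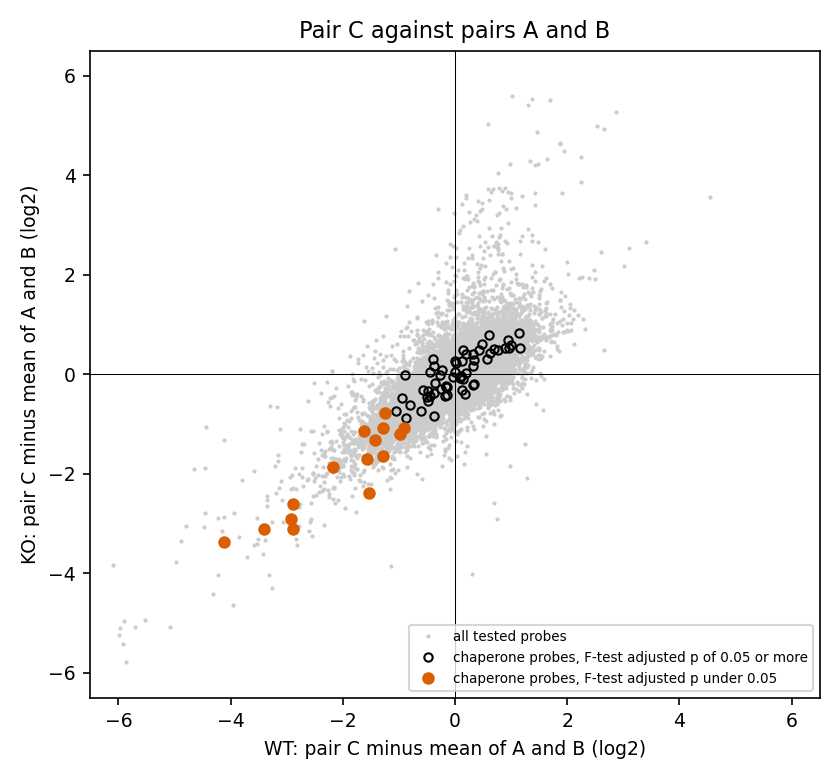
Pair C minus the mean of pairs A and B on the log2 scale, in KO (vertical) and WT (horizontal), for all 17920 tested probes (grey), 56 chaperone probes that did not pass the F-test for the pair letter (open) and 15 that did (orange). The 15 lie in the lower left, out to Hsph1 at -3.37 in KO and -4.12 in WT, and some grey probes lie further out.

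Promoter windows of the members were read to show which carry the binding motif of heat shock factors and which that of the ER stress factors. Hsph1, Hspe1 and Hspa1b are shown as genes that passed for the pair letter, and the ER genes Hspa5 and Hsp90b1 beside them. Windows run from 250 bases before to 50 bases after the annotated start, from RefSeq on GRCm38.p6, and 38 of 48 tested genes had one. Capitals mark the motif. The first pair of sequences holds the heat shock element of 3 units, which is GAANNTTC followed by NNGAA, or TTCNN followed by GAANNTTC, each the reverse complement of the other. Hsph1 lies at chr5:149636287-149636586 on the minus strand, and Hspe1 at chr1:55087898-55088197 on the plus strand, in the stretch it shares with Hspd1.
Hsph1: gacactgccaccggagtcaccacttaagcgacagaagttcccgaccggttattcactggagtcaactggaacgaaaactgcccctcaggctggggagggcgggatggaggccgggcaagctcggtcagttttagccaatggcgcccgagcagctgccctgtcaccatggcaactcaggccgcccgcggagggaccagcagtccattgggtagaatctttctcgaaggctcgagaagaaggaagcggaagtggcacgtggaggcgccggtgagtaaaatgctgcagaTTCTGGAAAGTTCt
Hspe1: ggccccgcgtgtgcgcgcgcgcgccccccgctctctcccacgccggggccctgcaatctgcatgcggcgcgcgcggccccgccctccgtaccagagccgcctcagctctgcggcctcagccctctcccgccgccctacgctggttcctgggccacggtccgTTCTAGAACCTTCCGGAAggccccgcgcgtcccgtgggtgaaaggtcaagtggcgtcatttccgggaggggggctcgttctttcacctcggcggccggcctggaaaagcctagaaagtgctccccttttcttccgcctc
The motif begins 37 bases after the start in Hsph1, and 89 and 84 bases before it, as overlapping matches, in Hspe1. Hspa1b, at chr17:34959189-34959488 on the minus strand, has the 2-unit form GAANNTTC, which reads the same on both strands, 104 bases before its start.
Hspa1b: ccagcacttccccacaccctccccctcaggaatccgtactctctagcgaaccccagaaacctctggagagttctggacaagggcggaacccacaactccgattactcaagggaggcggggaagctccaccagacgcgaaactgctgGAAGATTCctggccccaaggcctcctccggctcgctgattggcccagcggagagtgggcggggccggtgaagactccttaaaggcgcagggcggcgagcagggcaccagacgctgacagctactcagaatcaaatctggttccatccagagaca
Hspa5, at chr2:34771840-34772139 on the plus strand, and Hsp90b1, at chr10:86705395-86705694 on the minus strand, hold the ER stress element, which is CCAAT and CCACG with 9 bases between them, searched on both strands.
Hspa5: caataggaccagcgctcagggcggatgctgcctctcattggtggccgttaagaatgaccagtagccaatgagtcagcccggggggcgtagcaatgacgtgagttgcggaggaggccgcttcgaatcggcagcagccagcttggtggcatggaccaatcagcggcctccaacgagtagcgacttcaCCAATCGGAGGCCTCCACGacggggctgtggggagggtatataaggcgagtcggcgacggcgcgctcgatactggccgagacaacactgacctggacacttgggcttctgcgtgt
Hsp90b1: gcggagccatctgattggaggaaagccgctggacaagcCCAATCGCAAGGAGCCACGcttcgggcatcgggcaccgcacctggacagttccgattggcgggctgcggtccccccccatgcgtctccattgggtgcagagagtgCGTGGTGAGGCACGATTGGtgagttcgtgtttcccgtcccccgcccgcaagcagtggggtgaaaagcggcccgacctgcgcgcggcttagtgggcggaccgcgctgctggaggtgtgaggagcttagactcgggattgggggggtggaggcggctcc
It occurs 1 time in Hspa5, 65 bases before the start, and in Hsp90b1 at 212 and 107 bases before the start.

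The 3-unit heat shock element was found in windows of 4 of the 38 tested members, Dnajb6, Hspd1, Hspe1 and Hsph1, and in 0.603% of all 32851 windows. The ER stress element was found in 3 members, Dnajc3, Hsp90b1 and Hspa5, and in 0.119% of all windows. The shorter GAANNTTC, which the 3-unit motif contains, was found in 10 members and in 7.86% of all windows. Among 10 genes with a probe called for the pair letter, 8 had a window and 7 of these held GAANNTTC, namely Hspa1a, Hspa1b, Hspb1, Hspb8, Hspd1, Hspe1 and Hsph1. Among the other tested members 30 had a window and 3 held it, Dnajb6, Dnajc27 and Hspb6. The other 2-unit form, TTCNNGAA, which the 3-unit motif also contains, was found in 6 members and in 8.52% of all windows. It was in 3 of the 8 windowed genes called for the pair letter (Hspd1, Hspe1 and Hsph1) and in 3 of the 30 others (Dnajb4, Dnajb6 and Dnajc10). Hsp90aa1, Hspa8 and Dnajc12 are among the 10 members with no window. Hspd1 and Hspe1 overlap on chromosome 1, and Hspa1a and Hspa1b are near-identical copies, so the 7 genes are not independent. A gene counts if any of its windows matches, while the percentages are shares of windows. A match describes letters in these windows only.

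Partners of the chaperones, from lists of named genes, were read at the brightest tested probe of each gene. None of them passed for KO against WT (0.0192% of 10419 genes did), and in the 5 lists of partners 0 genes had an unadjusted p under 0.05 in limma, against 3.24%. With the replicate block 1 had, against 8.68%, and it was Grpel2, a mitochondrial exchange factor, at -0.38 (block SE 0.15). Median differences were -0.09 over 13 Hsp70 exchange factors and regulators, 0.06 over 14 Hsp90 cochaperones, -0.04 over 13 TRiC and prefoldin subunits, 0.09 over 16 genes of ER folding and the unfolded protein response, and 0.06 over 9 genes of mitochondrial folding, against -0.01 over all genes. Of the heat shock factor list only the binding protein gene Hsbp1 was tested, at 0.04 (SE 0.25). Unc45a, a myosin cochaperone, had the smallest p of the Hsp90 list, at -0.34 (SE 0.24).

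Between pairs, 5 of 14 Hsp90 cochaperones passed the F-test with pair C lower, against 4.71% of all genes, and 2 of 13 Hsp70 exchange factors and regulators did. Chordc1, a zinc-binding Hsp90 partner, read 8.90 in KO array C against 10.56 and 10.33 in KO arrays A and B, and 8.72 in WT array C against 10.58 and 10.41 in WT arrays A and B (adjusted p = 0.011 in limma). Stip1, which links Hsp70 to Hsp90, was lower in pair C by -1.12 in KO and -1.69 in WT, Ahsa1, the activator of the Hsp90 ATPase, by -1.24 and -1.19, Cdc37l1 by -1.07 and -0.98, and Fkbp5, an immunophilin, by -1.33 and -0.94. Of the Hsp70 list, the exchange factor Bag3 was at -1.36 in KO and -1.27 in WT, and St13, which stabilises Hsp70 in its ADP-bound state, at -0.69 and -0.94. In the other partner lists, 0 of 13 TRiC and prefoldin genes, 0 of 9 mitochondrial genes and 1 of 16 ER genes passed. The ER gene was Trib3, a pseudokinase of the integrated stress response, at -2.45 in KO and -1.84 in WT.

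**Figure D5:**
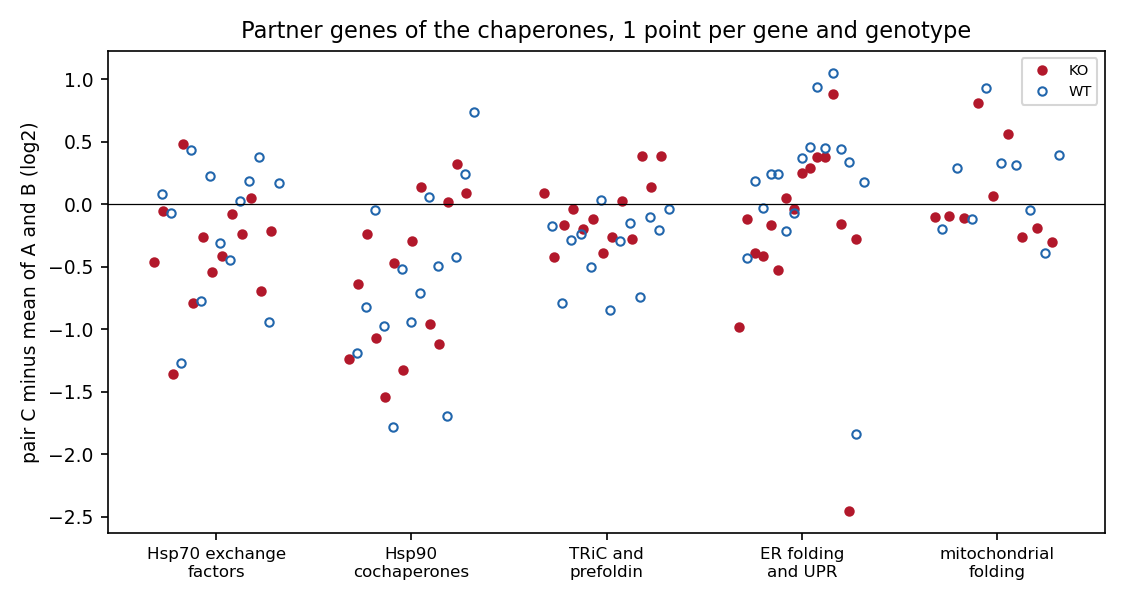
Pair C minus the mean of pairs A and B on the log2 scale for each tested partner gene, KO filled and WT open, by list. Hsp90 cochaperones reach down to -1.54 in KO and -1.78 in WT (Chordc1), while the TRiC and prefoldin subunits stay between -0.42 and 0.39 in KO and between -0.84 and 0.04 in WT.

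Markers of cell types and of proliferation were read between the pairs in the same way. For the pair letter 0 of 12 proliferation, 0 of 7 basal, 0 of 11 fibroblast, 0 of 3 T cell and 0 of 5 endothelial genes passed, against 6.38% of all genes, with 1 of 11 luminal genes (Foxa1) and 1 of 7 macrophage genes (Lyz2), both higher in pair C. The summed level of proliferation genes was 11.76, 9.59 and 11.40 in KO arrays A, B and C, and 9.30, 9.79 and 10.74 in WT arrays. Pair C was thus the highest in WT but not in KO. Median values of pair C minus the mean of A and B were 0.55 in KO and 0.80 in WT for basal markers, 0.57 and 0.04 for fibroblast markers, and 0.23 and -0.05 for luminal markers. The T cell markers Cd3d, Cd3e and Cd3g had medians of 5.41 in KO and 1.29 in WT, with a summed level of 11.58 in KO array C against 6.38 and 6.23 in KO arrays A and B, and 8.14 in WT array C against 6.93 and 6.82 in WT arrays A and B. Cd8a and Ptprc were detected on no array. The part of these cells in the chaperone gap was not tested.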

How the data were processed

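Biotin-labelled cRNA was hybridised to Illumina mouse arrays, according to the labels. Intensity values were deposited without normalisation, each column followed by detection p-values that the file headers name only as Detection Pval. Such p-values compare a probe with the array's negative control beads, which the headers do not state. The authors' value table is on a log2 scale, with the same median (6.75) in each column and the probe order of the raw intensities (rank correlation 1), so that higher means brighter, with genes not centred. Its transform stays unknown. The submitters' processing notes name GenomeStudio and lumi, with no role. All columns belonged to a sample.

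Intensities were normalised with neqc (limma 3.58.1, R 4.3.3; offset 16, quantiles, log2). The KO against WT test was lmFit and eBayes, two-sided, at probe level over 17920 probes, with Benjamini-Hochberg adjustment and a threshold of 0.05. Group-wise deviations of same-lettered arrays correlated (0.352, 0.490 and 0.720 for pairs A, B and C), and the alternative fit took that letter as a replicate block. The labels speak of pairs. KO array B with WT array A, not a pair, gave 0.423. Symbols came from the platform annotation, and updating them through a GRCm38.p6 gene table added or lost 0 members. List genes stood for their brightest tested probe. Named were both Dnajc12 probes, the brightest and the 4 smallest-p probes of each role, all probes without overlap, the inducible chaperones, and up to 2 genes of each list. Genes called for the pair letter were named after their values were seen. Members and lists were chosen with earlier results of these data known. Scripts were tested on simulated data.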

Additional observations from a re-analysis of the deposited data

How the results depend on the processing

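Under every alternative 0 member probes passed for KO against WT over all probes in limma. Both Dnajc12 probes kept a negative difference, from -1.31 to -0.77 and from -1.52 to -0.59. Their adjusted p in limma ran from 0.145 to 0.99998 and from 0.0689 to 0.9999. The Dnajc12 difference was known when the genes were chosen, so these ranges are a description and not a test. Member probes at an unadjusted p under 0.05 numbered 2, against 3.03% of all tested probes. In the fit with the replicate block (the pair letter) they numbered 7, against 8.08%. By gene the count was 1 by the brightest probe, against 3.24% of all genes, and 1 by the mean of the probes. It was 5 without a detection filter (of 130 probes), 5 with array weights and 2 to 4 on omission of 1 array. For these settings and the mean of the probes the share of all probes is not given here. Over all probes 3 passed, or 1 without background correction, on the authors' table, with an offset of 50 or without a detection filter, 0 with detection p under 0.01 on all 6 arrays (358 at an unadjusted p under 0.05) and 5 with array weights; omission of 1 array gave 1 to 2. With the replicate block 4 passed, and it changed no call of a member. The members' median of -0.10 ran from -0.16 to 0.01 when an array was omitted, with the highest without KO replicate C, and was -0.17 with median scaling, where the median of all probes was -0.10.

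For the pair letter 15 of 71 member probes passed in limma (6.0% of all probes), 7 without background correction (0.921%), 4 on the authors' table (0.541%), 14 with an offset of 50 (3.04%), 15 with median scaling (4.85%), 17 with trend and robust (7.32%), 18 with array weights (7.83%), 17 of 60 with the stricter detection (9.96%), 9 of 48 genes with the brightest probe (5.18%), 8 of 48 with the mean of the probes (4.13%), 0 with pairs A and B only (6 at an unadjusted p under 0.05) and 0 without a detection filter (37 unadjusted, of 130). The last tests 45281 probes, and the causes of the other shifts were not tested. For the unadjusted counts of 6 and 37 no share of all probes is given. They are therefore not read as a result about the members. Omission of 1 array gave 6 to 15. Pairs A and B only and this test were chosen after seeing the data. Of 681 values of 39 named member probes under the alternatives, 666 stayed within 1 SD of the replicates. The other 15 moved further, all of them for Dnajb4, Dnajc2, Dnajc4, Dnajc12 and Hspa5. The SD within a genotype includes the gap of pair C. It was 1.96 in KO and 2.38 in WT for Hsph1, but 0.06 and 0.05 for Hspa5. Staying within 1 SD therefore says little for probes with a wide gap.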
